A study of Mus musculus with 7 samples.

Results

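The pentose phosphate pathway and the cytosolic isocitrate dehydrogenase were examined through 9 genes, G6pdx, H6pd, Pgls, Pgd, Rpia, Rpe, Tkt, Taldo1 and Idh1. They were taken by name from the 23347 genes of the liver count table. The rule used no measured value, but the gene set was proposed with earlier results of these data known. All 9 were in the table, and all 9 passed the filter on low counts together with 15179 genes in all. The livers came from male C57BL/6 mice that started the CDAHFD, a high-fat diet of defined amino acids without choline, at an age of at least 6 weeks and stayed on it for 15 weeks. Controls were 4 B4galt1 flox/flox littermates, labelled WT, in which the gene for a Golgi galactosyltransferase is flanked by recombination sites but not removed. The other 3 mice were labelled B4galt1-HKO, the group the study calls B4galt1 hep-/-, with Cre recombinase driven by the albumin promoter, which is active in hepatocytes and leaves the gene in the other cells of the liver. Each mouse gave 1 library of whole liver RNA, and the comparison asked how the pathway's transcripts differed when hepatocytes lacked B4galt1 on this diet.

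In the oxidative branch of the pathway, glucose 6-phosphate is oxidized to a pentose phosphate and NADP is reduced to NADPH, the electron donor for fatty acid and cholesterol synthesis and for the recycling of glutathione and thioredoxin. The non-oxidative branch interconverts pentose phosphates with intermediates of glycolysis, so that carbon can leave as ribose for nucleotides or return to glycolysis. The fatty liver draws on NADPH both for lipid synthesis and for defence against lipid peroxides, and cytosolic isocitrate dehydrogenase is a further source of it.

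Livers labelled hep-/- had lower transcript levels of Pgd, the enzyme of the oxidative branch that releases the pentose phosphate and makes its later NADPH, and of Taldo1, the transaldolase of the non-oxidative branch. The log2 fold change was -0.62 ± 0.19 (SE) for Pgd and -0.73 ± 0.20 (SE) for Taldo1, with adjusted p-values of 0.0424 and 0.0321 in the quasi-likelihood test of edgeR after Benjamini-Hochberg adjustment across all tested genes. The other 7 members did not pass the threshold, which was an adjusted p under 0.05 with an absolute log2 fold change over 0.58. Thus 2 of 9 members were called, both lower, where 15.8% of all tested genes were called and 7.83% were called lower. On leaving out 1 library at a time, 1 member (Taldo1) was called in 2 of the 7 fits and 0 in the other 5. No member was called higher in edgeR, DESeq2 or voom, and 0 of 9 were higher at an unadjusted p under 0.05, while 1215 of the 15179 tested genes were called higher. In sign, 7 members were lower and 2 were higher, Rpia and Rpe, of which Rpe changed sign in limma fits on FPKM and with single libraries left out. The median log2 fold change over the 9 was -0.30, beside 0.02 over all tested genes. In whole liver RNA, fewer cells of a type and less RNA per cell cannot be told apart.

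Some facts of the libraries touch these values. B4galt1 was at 48.7, 53.0, 49.2 and 51.6 CPM, counts scaled by library total and TMM factor, in flox/flox replicates 1 to 4, and at 28.4, 23.9 and 53.7 CPM in replicates 1 to 3 labelled hep-/-. Replicate 3 of the latter therefore went against its label, so every direction given here is a direction between labels. The log2 fold change of B4galt1 was -0.52 ± 0.26 (SE, adjusted p = 0.181, edgeR) with all libraries and -0.96 ± 0.19 (SE, adjusted p = 0.0139, edgeR) without that one. Total counts were 37838654 to 39668509 in flox/flox libraries and 30608271 to 34586588 in those labelled hep-/-, and 3 counts corresponded to 0.0690 to 0.0987 CPM. Mitochondrially encoded transcripts took 3.88% to 7.996% of counts in flox/flox livers and 14.4% to 22.6% in livers labelled hep-/-, and their part in the results was not tested beyond a fit without these genes, in which Pgd and Taldo1 were again the 2 members called. Hepatocyte markers were present in every library, with summed levels of 82686 to 123310 CPM in flox/flox livers and 99442 to 155723 CPM in livers labelled hep-/-. No pair among the 21 pairs of libraries was close to a copy, the lowest chi-square per gene being 58.5.

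The start regions of 3 genes are shown because they belong to the first enzyme of the oxidative branch and to the 2 called members. Each runs from 250 bases before the transcription start to 50 bases after it, in RefSeq's annotation of GRCm38.p6, 5′ to 3′ on the strand of the gene, and so holds the proximal promoter and the first transcribed bases. Capitals mark a match to TGACNNNGC on either strand, the core of the antioxidant response element that NRF2, the regulator of oxidative stress genes, binds. G6pdx lies on the minus strand at chrX:74428831-74429130, Pgd on the minus strand at chr4:149166656-149166955, and Taldo1 on the plus strand at chr7:141391910-141392209.
G6pdx: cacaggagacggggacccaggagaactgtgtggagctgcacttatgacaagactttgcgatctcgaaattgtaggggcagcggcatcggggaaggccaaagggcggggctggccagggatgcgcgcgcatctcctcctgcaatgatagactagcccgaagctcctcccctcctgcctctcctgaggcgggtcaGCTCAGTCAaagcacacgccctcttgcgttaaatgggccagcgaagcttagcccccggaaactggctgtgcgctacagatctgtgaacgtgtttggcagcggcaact
Pgd: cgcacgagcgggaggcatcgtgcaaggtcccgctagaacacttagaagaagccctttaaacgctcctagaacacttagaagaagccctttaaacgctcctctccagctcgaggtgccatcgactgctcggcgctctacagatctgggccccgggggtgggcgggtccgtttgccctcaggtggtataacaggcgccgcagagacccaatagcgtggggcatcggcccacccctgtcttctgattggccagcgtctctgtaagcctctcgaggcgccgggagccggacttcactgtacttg
Taldo1: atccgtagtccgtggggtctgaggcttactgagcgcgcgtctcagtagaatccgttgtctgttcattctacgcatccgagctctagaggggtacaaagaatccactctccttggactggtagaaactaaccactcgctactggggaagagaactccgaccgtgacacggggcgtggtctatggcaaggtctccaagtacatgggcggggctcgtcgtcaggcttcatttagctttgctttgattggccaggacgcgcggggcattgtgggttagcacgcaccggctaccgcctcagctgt
The G6pdx window held 1 match, on the strand opposite to the gene, at bases -57 to -49 from the start. The Pgd window shown and the Taldo1 window held none. A second annotated start of Pgd, with its window at chr4:149166033-149166332, had a match at bases 3 to 11 past the start. That match lay in the bases annotated as transcribed, so only the match of G6pdx lay before a start. Whether this second start is used in liver was not examined. All 9 members had a window, 11 windows in all, and 2 of the 11 held this core, beside 12.4% of 32851 promoter windows of the same length. The E-box CACGTG, searched as a single exact site and not tied here to a named factor, was in 0 of 11 and in 7.15% of all windows. The direct repeat DR1, bound by PPARs, was in 0 of 11 and in 0.0396% of all windows. In the form searched it was in only 13 of the 32851 windows. A form this rare would be missing from almost any 11 windows, so its absence here cannot show whether the members lack PPAR sites. With no match of the other motifs, no matches overlapped. A match is a description of the sequence, and binding was not measured.

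**Figure D1:**
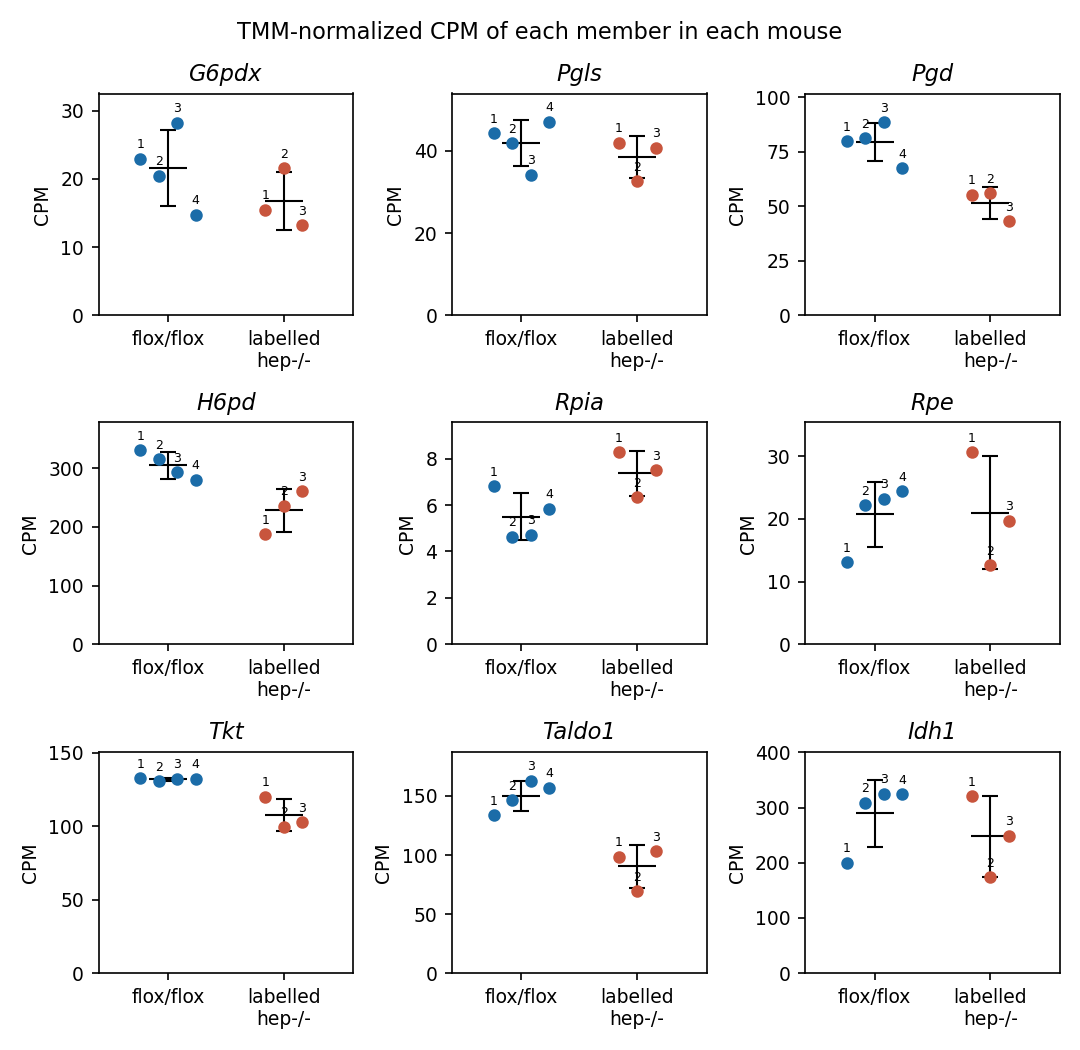
CPM (TMM-normalized counts, vertical axes from 0) of each member in each mouse, with flox/flox in blue (n = 4) and livers labelled hep-/- in red (n = 3). Numbers beside points are replicate numbers, and bars give the mean ± SD. Points of the groups are apart for H6pd, Pgd, Tkt and Taldo1, with the livers labelled hep-/- lower in each, and overlap for the other members.

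Within the oxidative branch, the first step is glucose-6-phosphate dehydrogenase, encoded by G6pdx, which commits glucose 6-phosphate to the pathway. It was at 23.0, 20.5, 28.3 and 14.7 CPM in flox/flox replicates 1 to 4 and at 15.5, 21.5 and 13.2 CPM in replicates 1 to 3 labelled hep-/-. The groups overlapped, with replicate 2 labelled hep-/- above a pair of controls, and flox/flox replicate 4 was the lowest control. The log2 fold change of G6pdx was -0.37 ± 0.25 (SE, adjusted p = 0.329, edgeR), and -0.59 (without replicate 2 labelled hep-/-) to -0.21 (without flox/flox replicate 3) on leaving out 1 library.

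Pgls encodes 6-phosphogluconolactonase, which opens the lactone made in the first step. Its level was 44.3, 41.9, 34.2 and 47.1 CPM in flox/flox livers and 42.0, 32.5 and 40.8 CPM in livers labelled hep-/-. These ranges overlapped for most of their length. The log2 fold change of Pgls was -0.12 ± 0.18 (SE, adjusted p = 0.673, edgeR), and lay between -0.21 (without flox/flox replicate 3) and -0.017 (without replicate 2 labelled hep-/-) on leaving out 1 library.

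Pgd encodes 6-phosphogluconate dehydrogenase, which yields NADPH and ribulose 5-phosphate. It was at 79.97, 81.2, 88.6 and 67.6 CPM in flox/flox replicates 1 to 4, and at 55.3, 56.0 and 43.1 CPM in replicates 1 to 3 labelled hep-/-. Every liver labelled hep-/- lay below every control, and the lowest of all was replicate 3, the library whose B4galt1 level was not lowered. Group means were 79.3 ± 8.72 CPM (SD, n = 4) and 51.5 ± 7.23 CPM (SD, n = 3). An exact permutation test of the means, two-sided, returned p = 0.0286, the smallest that 4 against 3 mice allow. The call of Pgd was near the threshold, since it was lost on leaving out any 1 of the 7 libraries, with log2 fold changes of -0.69 to -0.52 and adjusted p-values of 0.0525 to 0.115 in edgeR. Without replicate 3 labelled hep-/- the log2 fold change was -0.52 (adjusted p = 0.102, edgeR).

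H6pd encodes the hexose-6-phosphate dehydrogenase of the endoplasmic reticulum, which carries out both early oxidative steps inside that compartment and supplies its NADPH to 11β-hydroxysteroid dehydrogenase, the enzyme that regenerates active glucocorticoid. It was at 330, 315, 293 and 281 CPM in flox/flox replicates 1 to 4, and at 188, 236 and 261 CPM in replicates 1 to 3 labelled hep-/-. The groups did not overlap, although the gap between replicate 3 labelled hep-/- and the lowest control was smaller than the spread within either group. Means were 305 ± 22.3 CPM (SD, n = 4) and 228 ± 36.9 CPM (SD, n = 3). An exact permutation test of the means, two-sided, returned p = 0.0286. In the fit across all genes the log2 fold change of H6pd was -0.42 ± 0.19 (SE, adjusted p = 0.159, edgeR), so it was not called. Hsd11b1, the partner that uses this NADPH, was chosen after its values were seen and stood on the other side of zero, at 235, 380, 342 and 393 CPM in flox/flox livers and 609, 370 and 658 CPM in livers labelled hep-/-. Its groups overlapped through replicate 2 labelled hep-/-, and its log2 fold change was 0.69 ± 0.26 (SE, adjusted p = 0.0860, edgeR). It was called higher by DESeq2 (adjusted p = 0.0362), by voom (adjusted p = 0.0392) and by edgeR without replicate 2 labelled hep-/- (adjusted p = 0.0332), and was at 0.53 (adjusted p = 0.214, edgeR) without replicate 3. Slc37a4, the transporter that brings glucose 6-phosphate into the same compartment, had a log2 fold change of -0.35 ± 0.22 (SE, adjusted p = 0.298, edgeR).

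In the non-oxidative branch, Rpia and Rpe encode the isomerase and the epimerase that turn ribulose 5-phosphate into ribose 5-phosphate and xylulose 5-phosphate. Rpia was at 6.81, 4.64, 4.73 and 5.85 CPM in flox/flox replicates 1 to 4 and at 8.28, 6.33 and 7.50 CPM in replicates 1 to 3 labelled hep-/-. It was the member with the highest log2 fold change, 0.42 ± 0.24 (SE, adjusted p = 0.254, edgeR), and all 3 livers labelled hep-/- exceeded the control mean, while 1 control lay within their range. Rpe was at 13.1, 22.2, 23.3 and 24.4 CPM in flox/flox livers and at 30.7, 12.6 and 19.7 CPM in livers labelled hep-/-, which held both the highest and the lowest value. Its log2 fold change was 0.02 ± 0.30 (SE, adjusted p = 0.974, edgeR), and its sign turned with the library left out, from -0.37 to 0.28.

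Tkt encodes transketolase, which moves units of 2 carbons between sugar phosphates. It was at 132.7, 130.7, 132.4 and 132.4 CPM in flox/flox replicates 1 to 4, and at 120, 99.8 and 103 CPM in replicates 1 to 3 labelled hep-/-. The controls were nearly identical, and each liver labelled hep-/- lay below them. Means were 132 ± 0.924 CPM (SD, n = 4) and 108 ± 11.0 CPM (SD, n = 3). An exact permutation test of the means, two-sided, returned p = 0.0286. The log2 fold change of Tkt was -0.30 ± 0.17 (SE, adjusted p = 0.255, edgeR), so it was not called in the fit across all genes.

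Taldo1 encodes transaldolase, which moves units of 3 carbons and, with transketolase, returns pentose carbon to glycolysis. It was at 133, 146, 163 and 157 CPM in flox/flox replicates 1 to 4, and at 98.6, 69.5 and 103 CPM in replicates 1 to 3 labelled hep-/-. The groups were far apart, and replicate 2 labelled hep-/- was the lowest liver. Means were 150 ± 12.9 CPM (SD, n = 4) and 90.5 ± 18.3 CPM (SD, n = 3). An exact permutation test of the means, two-sided, returned p = 0.0286. The call of Taldo1 was kept without replicate 3 labelled hep-/- (log2 fold change -0.84, adjusted p = 0.0349, edgeR) and without flox/flox replicate 1, and was lost on leaving out any 1 of the other 5 libraries, where the highest adjusted p in edgeR was 0.0863.

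Idh1 encodes the cytosolic and peroxisomal isocitrate dehydrogenase that makes NADPH from isocitrate, outside the pentose phosphate pathway. It was at 200, 309, 325 and 325 CPM in flox/flox replicates 1 to 4, and at 320, 174 and 249 CPM in replicates 1 to 3 labelled hep-/-. Both groups were wide, with flox/flox replicate 1 far below the other controls and replicate 1 labelled hep-/- within the control range. The log2 fold change of Idh1 was -0.23 ± 0.26 (SE, adjusted p = 0.574, edgeR), and ranged from -0.47 without replicate 1 labelled hep-/- to -0.025 without replicate 2 of that label.

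The exact permutation test of single members, unadjusted, returned p = 0.229 for G6pdx, 0.429 for Pgls, 0.114 for Rpia, 1 for Rpe and 0.4 for Idh1, and its smallest value, 0.0286, for the 4 members whose groups were apart, where it restates that separation. Across the members, 4 of 9 had every liver labelled hep-/- below every control, namely H6pd, Pgd, Tkt and Taldo1, where 15.0% of all tested genes did so. The opposite arrangement was seen in 0 of 9 members and in 13.6% of tested genes. The count of called members was 1, Taldo1, without replicate 3 labelled hep-/- or without flox/flox replicate 1, and 0 without any 1 of the other 5 libraries.

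**Figure D2:**
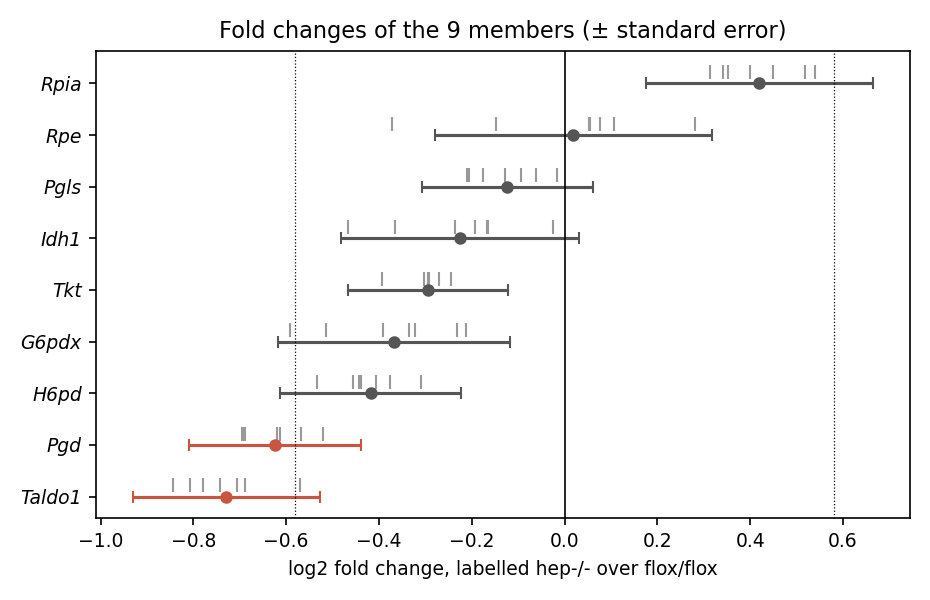
Log2 fold change of each member (horizontal axis, livers labelled hep-/- over flox/flox, n = 3 and n = 4), with bars of 1 standard error from the edgeR fit. Called members are red, grey ticks above each point are the values on leaving out 1 library at a time, and dotted lines mark -0.58 and 0.58. Taldo1 (-0.73) and Pgd (-0.62) lie beyond the threshold, and the ticks of Rpe fall on both sides of 0.

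Levels of different genes were compared per kilobase, as CPM divided by the fixed length per gene that the deposited counts and FPKM imply. This length need not be that of the transcript made in liver, so the order of genes rests on it. In flox/flox livers Idh1 at 119 ± 24.7 and Taldo1 at 118 ± 10.1 CPM per kilobase (SD, n = 4) were the highest members, and their ranges overlapped. Then came Tkt at 40.9 ± 0.286, H6pd at 38.3 ± 2.80, Pgls at 35.9 ± 4.77 and Pgd at 34.6 ± 3.80 CPM per kilobase, each overlapping the next. G6pdx at 9.24 ± 2.40 and Rpe at 6.60 ± 1.64 CPM per kilobase overlapped each other but not Pgd, and Rpia was the lowest at 3.11 ± 0.578. On this measure the first enzyme of the oxidative branch was among the lowest members. Its counterpart for the endoplasmic reticulum, H6pd, was 3.04 to 5.60 times as high per kilobase within the same control library.

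In livers labelled hep-/- the order of mean levels was the same apart from Pgls and H6pd, which changed places at 32.9 ± 4.40 and 28.6 ± 4.63 CPM per kilobase (SD, n = 3). Taldo1 stood at 70.9 ± 14.4 and Pgd at 22.4 ± 3.15 CPM per kilobase. The partners of the non-oxidative branch differed in their ratio, Taldo1 over Tkt being 2.54 to 3.11 in flox/flox libraries and 1.76 to 2.54 in libraries labelled hep-/-, ranges that met at replicate 3 of the latter. H6pd over G6pdx was 3.22 to 5.80 in libraries labelled hep-/-, a range much like that of the controls.

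**Figure D3:**
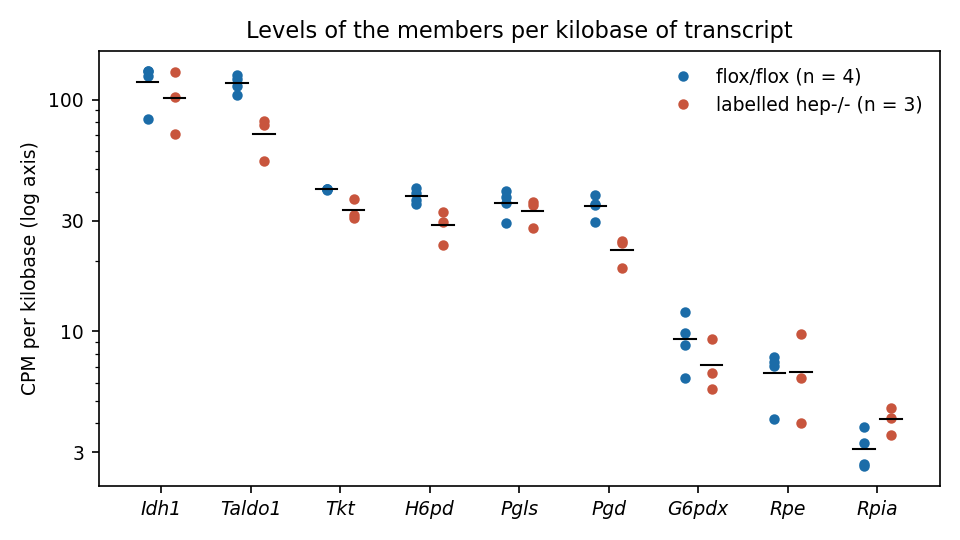
Level of each member in CPM per kilobase of the implied length (log axis), ordered by the flox/flox mean, with flox/flox in blue (n = 4), livers labelled hep-/- in red (n = 3) and black lines at group means. Idh1 and Taldo1 stand above 4 members between 34.6 and 40.9 in flox/flox livers, and G6pdx, Rpe and Rpia stand below them.

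The genes next to these members in metabolism were taken from lists chosen by function. Their counts stand beside 15.8% of all tested genes called in edgeR and 7.83% called lower. The list of pentose and ribose phosphate metabolism held 12 genes, of which 9 were tested, Tktl1 was at 0 counts in every library and G6pd2 and Tktl2 were not analysed here. edgeR called 0 of the 9, as did DESeq2 and voom, while 2 were lower and 1 was higher at an unadjusted p under 0.05. Their median log2 fold change was -0.37, beside 0.02 over all tested genes, with 8 lower and 1 higher in sign. The lowest was Dera, a deoxyribose phosphate aldolase, at -0.60 ± 0.24 (SE, adjusted p = 0.101, edgeR), and Prps1, which makes the ribose donor of nucleotides, was at -0.53 ± 0.21 (SE, adjusted p = 0.104, edgeR). Pgm2, which handles ribose and deoxyribose phosphates, was the one higher gene at 0.56 ± 0.23 (SE, adjusted p = 0.114, edgeR).

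Glucose 6-phosphate is the substrate of G6pdx and H6pd. Among 10 genes of its supply, use and control, edgeR, DESeq2 and voom each called 1 lower and 0 higher, and 0 were higher at an unadjusted p under 0.05, with a median log2 fold change of -0.23. Over all tested genes edgeR called 7.83% lower, so 1 of 10 is near that share. Pgm1, the phosphoglucomutase that links glucose 6-phosphate to glycogen, was at 178, 205, 203 and 189 CPM in flox/flox livers and at 90.5, 61.4 and 121 CPM in livers labelled hep-/-. All livers labelled hep-/- were below all controls, with a log2 fold change of -1.09 ± 0.24 (SE, adjusted p = 0.0133, edgeR).

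Of 11 other enzymes that make NADPH or its precursors, edgeR called 3 lower and did not call 8, with a median log2 fold change of -0.43. Among all tested genes 7.83% were called lower. DESeq2 called these 3 and also Mthfd2l, a mitochondrial folate enzyme, as higher, which in edgeR was at 0.93 ± 0.33 (SE, adjusted p = 0.0775). Idh2, the mitochondrial counterpart of Idh1, was at 187, 239, 217 and 242 CPM in flox/flox livers and at 98.9, 80.5 and 137 CPM in livers labelled hep-/-. Its groups did not overlap, and the log2 fold change was -1.07 ± 0.22 (SE, adjusted p = 0.0116, edgeR). Within each library, Idh1 over Idh2 per kilobase was 2.43 to 3.41 in flox/flox livers and 4.15 to 7.39 in livers labelled hep-/-, a ratio chosen after the values were seen and given without a test. Its size rests on implied lengths of 2438 bases for Idh1 and 5556 bases for Idh2, which are the same in both groups. Mthfd1, the cytosolic folate enzyme that can make NADPH, fell by 0.85 ± 0.20 on the log2 scale (SE, adjusted p = 0.0195, edgeR), a call lost on leaving out 3 of the 7 libraries in turn. Nnt, the transhydrogenase of the inner mitochondrial membrane, fell by 0.97 ± 0.30 on the log2 scale (SE, adjusted p = 0.0466, edgeR), a call lost on leaving out 5 of the 7 libraries in turn, replicate 3 labelled hep-/- among them (log2 fold change -1.08, adjusted p = 0.0665, edgeR). Me1, the cytosolic malic enzyme and a lipogenic source of NADPH, was at -0.55 ± 0.29 (SE, adjusted p = 0.213, edgeR) and was chosen after its values were seen.

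Of 17 enzymes that use NADPH, edgeR called 3 lower and 1 higher and did not call 13, with a median log2 fold change of -0.28. Shares over all tested genes were 15.8% called and 7.83% called lower. DESeq2 and voom called these 4 and Hsd11b1, as higher. Akr1b3, the aldose reductase, was at 19.9, 19.3, 29.2 and 17.3 CPM in flox/flox livers and at 8.02, 5.43 and 10.2 CPM in livers labelled hep-/-. No liver labelled hep-/- reached the lowest control, and the log2 fold change was -1.45 ± 0.27 (SE, adjusted p = 0.00759, edgeR). Txnrd1, the cytosolic thioredoxin reductase, was at -0.73 ± 0.22 (SE, adjusted p = 0.0449, edgeR) and Akr1a1, an aldehyde reductase, at -0.70 ± 0.22 (SE, adjusted p = 0.0491, edgeR). These calls were lost on leaving out 5 and 6 of the 7 libraries in turn, and without replicate 3 labelled hep-/- the log2 fold change was -0.83 for Txnrd1 (adjusted p = 0.0531, edgeR) and -0.83 for Akr1a1 (adjusted p = 0.0458, edgeR). Fdxr, the mitochondrial ferredoxin reductase, was the 1 that rose, by 1.29 ± 0.37 on the log2 scale (SE, adjusted p = 0.0365, edgeR), a call lost on leaving out 4 of the 7 libraries in turn.

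**Figure D4:**
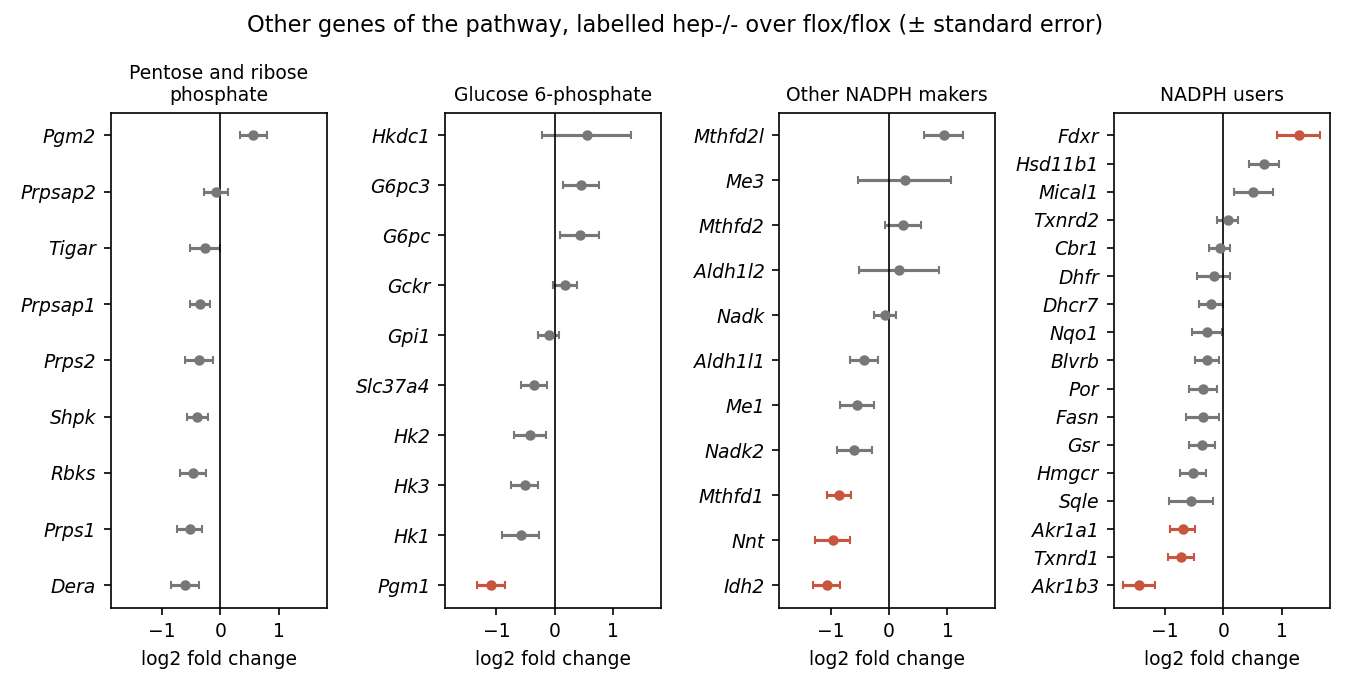
Log2 fold change (horizontal axes, livers labelled hep-/- over flox/flox, n = 3 and n = 4) with bars of 1 standard error for tested genes of 4 lists, from pentose phosphate metabolism to enzymes that use NADPH. Red points were called in edgeR. Fdxr (1.29) is the called gene to the right of 0, and Akr1b3 (-1.45) lies farthest to the left.

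Of 10 regulators chosen for their role in setting these genes, edgeR called 2 lower and 1 higher and did not call 7. Across all tested genes it called 15.8%, with 7.83% lower. Mlxipl, which encodes the carbohydrate response factor ChREBP, was at 109, 48.5, 26.6 and 74.1 CPM in flox/flox livers and at 134, 189 and 187 CPM in livers labelled hep-/-. The groups did not overlap, flox/flox replicate 1 being the closest control, and the log2 fold change was 1.40 ± 0.37 (SE, adjusted p = 0.0287, edgeR). Srebf2, the regulator of cholesterol synthesis genes, was at -0.68 ± 0.20 (SE, adjusted p = 0.0413, edgeR) and Pparg, a nuclear receptor of lipid storage, at -0.92 ± 0.25 (SE, adjusted p = 0.0311, edgeR). The calls of Mlxipl and Pparg were each lost on leaving out 4 of the 7 libraries in turn, replicate 3 labelled hep-/- among them (log2 fold changes of 1.31 and -0.99, adjusted p of 0.0660 and 0.0557, edgeR), and that of Srebf2 on leaving out 5 others, not that one. Nfe2l2, which encodes NRF2, was at -0.29 ± 0.19 (SE, adjusted p = 0.318, edgeR).

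The pathway is also active in macrophages, which use its NADPH for the oxidative burst, and markers of these cells moved with the groups. Of 14 macrophage markers tested, edgeR called 8 lower in livers labelled hep-/- and 0 higher, with 11 lower and 0 higher at an unadjusted p under 0.05 and 4 lower without replicate 3 labelled hep-/-. With all libraries, 7.83% of all tested genes were called lower. Lyz2, lysozyme, had a log2 fold change of -2.15 ± 0.32 (SE, adjusted p = 0.00380, edgeR), Adgre1, which encodes F4/80, one of -1.88 ± 0.43 (SE, adjusted p = 0.0159, edgeR), and Cd68 one of -1.15 ± 0.23 (SE, adjusted p = 0.0103, edgeR). None of the 14 was at 0 in all libraries. Their summed level was 2275, 2294, 3753 and 1708 CPM in flox/flox replicates 1 to 4 and 852, 864 and 927 CPM in replicates 1 to 3 labelled hep-/-.

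Within the 4 controls, Pgd was highest in replicate 3, followed by replicates 2, 1 and 4, which was also the order of the summed macrophage markers. This match was seen after the values were known, and no other member had that order. G6pdx was also highest in replicate 3 and lowest in replicate 4. Pgls had the reverse order, at 34.2, 41.9, 44.3 and 47.1 CPM in replicates 3, 2, 1 and 4. Flox/flox replicate 3 also stood apart in markers of sinusoidal endothelial cells, with Lyve1 at 48.4 CPM against 2.74 to 5.001 CPM in the other controls, Oit3 at 36.2 against 4.99 to 7.996 CPM and Clec4g at 90.9 against 19.9 to 28.4 CPM, genes chosen after their values were seen. The 12 endothelial markers summed to 220 to 594 CPM in flox/flox livers and 323 to 466 CPM in livers labelled hep-/-, and their part in the results was not tested. Without flox/flox replicate 3 the log2 fold change was -0.57 for Pgd (adjusted p = 0.0919, edgeR) and -0.69 for Taldo1 (adjusted p = 0.0717, edgeR). Taldo1 had another order, with replicates 3 and 4 highest and replicate 1 lowest, and Tkt hardly differed between these livers. Among livers labelled hep-/-, where the marker sum was nearly even, Pgd ranged from 43.1 to 56.0 CPM and Taldo1 from 69.5 to 103 CPM. The part of macrophages in the lower Pgd and Taldo1 levels was not tested. Of the other lists of cell type markers, edgeR called 1 of 12 hepatocyte markers, 0 of 9 neutrophil, 0 of 10 lymphocyte, 2 of 5 erythroid, 2 of 12 stellate cell and fibroblast, 2 of 12 endothelial, 0 of 10 cholangiocyte and 0 of 2 skeletal muscle markers. The share called over all tested genes was 15.8%. DESeq2 called 4 hepatocyte markers (Apoa1, Apoc3 and Serpina1a higher, Cps1 lower) and voom 3 of these, without Apoa1. Both called 3 erythroid markers, DESeq2 called 1 lymphocyte marker and voom 2, and voom called 1 endothelial marker. Of the lists without a call in edgeR, at an unadjusted p under 0.05 there were 1 lower and 1 higher neutrophil marker, 1 higher lymphocyte marker and 0 of the others. Without replicate 3 labelled hep-/-, edgeR called 2 hepatocyte markers (Apoc3 higher and Cps1 lower), 1 neutrophil marker (Csf3r, higher), 1 erythroid (Alas2), 1 stellate cell and fibroblast (Ngfr) and 1 endothelial marker (Stab1).

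**Figure D5:**
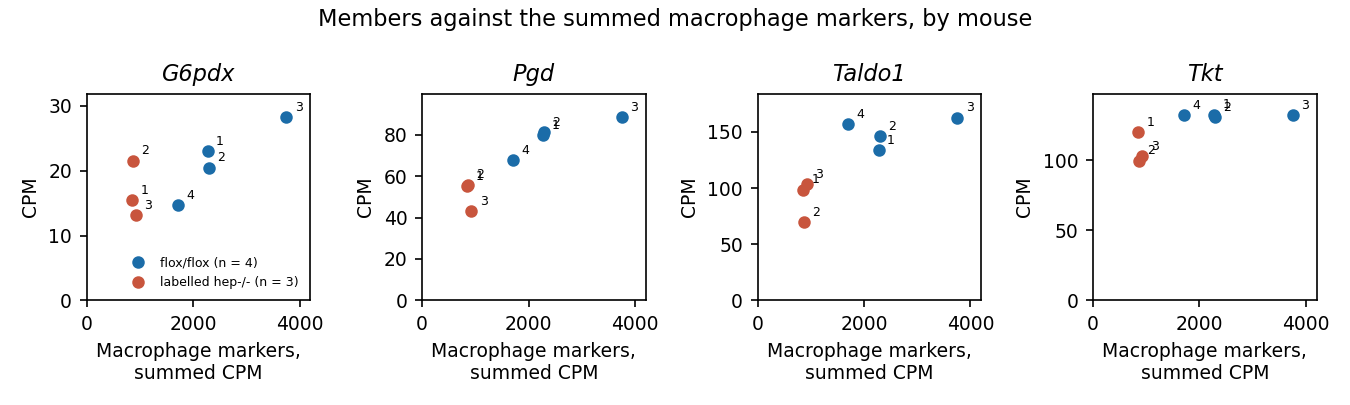
CPM of G6pdx, Pgd, Taldo1 and Tkt (vertical axes, from 0) against the summed CPM of 14 macrophage markers (horizontal axes) in each mouse, with flox/flox in blue (n = 4), livers labelled hep-/- in red (n = 3) and replicate numbers beside the points. All livers labelled hep-/- lie at 852 to 927 CPM of markers and all controls at 1708 CPM or more. Pgd in the controls follows the order of the markers, a match seen after the values were known.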

How the data were processed

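Liver RNA of 7 mice was measured, 4 controls and 3 labelled hep-/-, with a library per mouse. Groups and replicate numbers came from the sample labels. The authors extracted RNA with TRIzol, built libraries with a VAHTS kit and deposited counts per gene without normalization, and also deposited FPKM values, which equalled the count divided by a fixed length per gene and by the library total in 13374 genes with at least 10 counts in every library, where the implied length of a gene spread by at most 8.22e-06 percent. The submitters' processing notes name fastp, HISAT2, HTSeq, DESeq2, R 3.2.0 and the build GRCm39. Promoter windows were those of RefSeq's GRCm38.p6 table.

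The 9 members and all lists were chosen with earlier results of these data known. Counts were filtered by filterByExpr (minimum count 10, minimum total count 15), normalized by TMM and tested by edgeR 4.0.16 (quasi-likelihood F-test with no covariate, Benjamini-Hochberg adjustment) in R 4.3.3. Standard errors come from the F statistic. Scripts were tested on simulated data. Single values were compared by two-sided exact permutation over 35 splits. Named genes were the members, called genes of the lists, B4galt1 and markers where a result turned on them. Some genes of the lists are not reported here and were left out of the lists' counts and medians. Other named genes were chosen after their values were seen. Alternatives were DESeq2 1.42.0, other normalizations and filters, limma 3.58.1 on the log2 of FPKM after adding 1 or 0.1, voom, a replicate block, no mitochondrially encoded genes, no fold threshold and each library left out. Floors of 3 counts cover counting error only.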

Additional observations from a re-analysis of the deposited data

Results flagged for a closer look

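In 27 named genes, the highest or lowest of the 4 flox/flox values was compared with its neighbours by Dixon's ratio of gap to range. Chance alone picks out about 1 in 20 groups, and groups of 3 were not tested. Tkt in flox/flox replicate 2 was at 130.7 CPM while the other controls were at 132.4 to 132.7 CPM, a ratio of 0.848 in a group whose values were nearly equal. Idh1 in flox/flox replicate 1 was at 200 CPM (199.9) while the other controls were at 309 to 325 CPM, a ratio of 0.867. Adgre1 in flox/flox replicate 3 was at 71.3 CPM while the other controls were at 20.1 to 25.6 CPM, a ratio of 0.894. Replicate 3 also had the highest summed macrophage markers of the controls, at 3753 CPM.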

How the results depend on the processing

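edgeR called 2404 genes, 2 of the 9 members, 0 pentose and ribose phosphate genes, 1 gene around glucose 6-phosphate, 3 other NADPH makers and 4 NADPH users. On leaving out 1 library at a time these counts were 885 to 2396, 0 to 1, 0, 1, 1 to 3 and 1 to 3, the lowest number of genes being without flox/flox replicate 2, where no member was called. Pgd was then called in no fit and Taldo1 in 2 of 7. With upper-quartile normalization 1 member, Taldo1, was called. In limma on log2(FPKM + 1) with all genes above 0, 1330 genes, 1 member (Taldo1) and 2 pentose and ribose phosphate genes were called. With FPKM of at least 1 in 3 libraries, the pentose and ribose phosphate calls were 2 with a pseudocount of 1 and 3 with 0.1. The limma fits on FPKM, which differ from the edgeR fit in scaling, test and filter, moved the median of all genes by -0.12, -0.13 and -0.12 on the log2 scale, and 24.5%, 23.6% and 18.2% of calls were then higher against 50.5% in edgeR with TMM. Which of these differences moved them was not tested. The sign of Rpe turned in these 3 fits (-0.13, -0.16 and -0.13), without flox/flox replicate 1 (-0.15) and without replicate 1 labelled hep-/- (-0.37, in a range of -0.37 to 0.28 on leaving out each library), and the cause was not tested. With a replicate block, 1267 genes, 0 members, 1 other NADPH maker and 2 NADPH users were called. Deviations from group means correlated at -0.42, -0.10 and 0.09 between libraries of the same number, and no library labelled hep-/- correlated best with its own number. The highest value was 0.56, between replicate 2 labelled hep-/- and flox/flox replicate 1. So few libraries cannot exclude a pairing of the mice. DESeq2 called 3271 genes and, like RLE normalization, both filters and voom, called Pgd and Taldo1. Over the 27 named genes refitted under 18 alternatives each, 409 values kept their sign and side of the threshold, 66 lost the call, 6 gained it and 5 changed sign. The lowest count of a member in any library was 185, and effects of depth were not tested.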
